A study of Mus musculus with 6 samples.

Results

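Apoe, Trem2, Tyrobp and 6 genes of lipid handling (Lpl, Fabp5, Abca1, Abcg1, Plin2 and Soat1) were chosen by symbol, 9 of the 31053 genes counted, and each matched 1 gene identifier. They were followed in CD45+ cells (CD45 is the surface protein shared by leukocytes) sorted from the tumor-bearing right hemisphere of female SCID mice, which lack T and B cells, carrying xenografts of U87, an established human glioma line. In 3 mice the implanted cells expressed IL-33, an alarmin cytokine, and these mice were taken 3 weeks after implantation. In 3 control mice the cells carried the empty vector pcDNA 3.1, and these were taken at 6 weeks, so that IL-33 status and time cannot be told apart. All mice were 6 to 8 weeks old by their labels and received 50000 cells. The 6 libraries were deposited as 1 matrix of unique molecular identifiers (UMIs, counts of captured RNA molecules) whose barcodes end in a suffix from 1 to 6. No label ties a suffix to a mouse, and the cell totals that the study gives for its libraries were not used to assign suffixes. The matrix was therefore treated as 1 pooled sample, mice with and without IL-33 in the xenograft were not set against each other, and no p-values were computed. The spread over suffixes is a description of how far a value varied between libraries.

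Apolipoprotein E, the product of Apoe, is secreted by astrocytes and microglia and carries cholesterol and phospholipid between brain cells. It is a ligand of TREM2, a lipid-sensing receptor of microglia that signals through the adaptor encoded by Tyrobp (DAP12), an adaptor that NK cells and other myeloid cells also use for their own receptors. Lpl encodes the lipoprotein lipase that frees fatty acids from lipoproteins, and Fabp5 a carrier of fatty acids inside the cell. Abca1 and Abcg1 encode the transporters that export cholesterol, both classical targets of the liver X receptors, as is Apoe. Plin2 encodes the coat protein of lipid droplets, and Soat1 the enzyme that esterifies cholesterol for storage. Raised Apoe, Lpl and genes of lipid handling, with loss of homeostatic genes, are known from microglia near plaques, demyelinated tissue and tumors.

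The 9 genes are protein coding and lie on 6 chromosomes of mouse build GRCm38 (GENCODE annotation). Apoe spans chr7:19696109-19699188 on the minus strand and Tyrobp chr7:30413760-30417585 on the plus strand. Trem2 spans chr17:48346401-48354147 and Abcg1 chr17:31057675-31117988, both on the plus strand. Abca1 spans chr4:53030787-53159895 and Plin2 chr4:86648386-86670060, both on the minus strand. Lpl lies at chr8:68880491-68907448 and Fabp5 at chr3:10012548-10016607, both on the plus strand, and Soat1 at chr1:156424525-156474331 on the minus strand. Promoter windows of 300 bases (250 before and 50 after a RefSeq start site, GRCm38.p6) were at hand for 5 of the 9 genes, namely Apoe, Trem2, Abca1, Plin2 and Soat1. The 250 bases before the start are shown for the ligand, its receptor, an efflux transporter and the droplet coat gene, 5′ to 3′ on the gene's strand. This choice followed the results below, in which Abca1 and Plin2 reached the threshold for a rise with the Apoe share and Trem2 rose less. Capitals mark matches to the motifs named after the sequences.
Apoe, chr7:19699189-19699438, minus strand: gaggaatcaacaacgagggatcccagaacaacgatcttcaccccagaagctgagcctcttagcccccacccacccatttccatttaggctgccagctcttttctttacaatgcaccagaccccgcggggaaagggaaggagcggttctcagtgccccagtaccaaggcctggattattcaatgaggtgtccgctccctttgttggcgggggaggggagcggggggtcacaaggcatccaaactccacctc
Trem2, chr17:48346151-48346400, plus strand: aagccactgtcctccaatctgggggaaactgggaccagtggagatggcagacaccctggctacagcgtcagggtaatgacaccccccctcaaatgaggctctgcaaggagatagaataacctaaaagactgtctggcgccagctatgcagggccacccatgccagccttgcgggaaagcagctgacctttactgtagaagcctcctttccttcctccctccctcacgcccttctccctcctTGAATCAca
Abca1, chr4:53159896-53160145, minus strand: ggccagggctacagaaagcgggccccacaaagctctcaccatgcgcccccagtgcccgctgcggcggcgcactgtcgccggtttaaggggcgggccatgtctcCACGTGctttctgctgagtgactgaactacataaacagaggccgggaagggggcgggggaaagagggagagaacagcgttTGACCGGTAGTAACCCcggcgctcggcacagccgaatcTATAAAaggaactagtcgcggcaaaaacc
Plin2, chr4:86670060-86670309, minus strand: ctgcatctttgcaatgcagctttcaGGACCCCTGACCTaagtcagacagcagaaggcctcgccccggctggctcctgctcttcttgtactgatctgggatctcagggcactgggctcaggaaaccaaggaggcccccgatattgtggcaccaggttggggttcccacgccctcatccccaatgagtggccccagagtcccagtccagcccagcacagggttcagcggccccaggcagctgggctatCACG

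Both strands were searched for 8 motifs. These were the DR4 element (AGGTCA, 4 free bases and AGGTCA again, the repeat bound by liver X receptors) with up to 3 mismatches, the DR1 element (the same with 1 free base, bound by PPAR receptors) with up to 2, and without mismatches the sterol element TCACNCCAC, the E-box CACGTG, the AP-1 site TGANTCA, the PU.1 site GAGGAAGT, the C/EBP site TTGCNNAA and TATAAA. The Abca1 window held a DR4 match with 3 mismatches on the minus strand, an E-box and TATAAA. The Plin2 window held a DR1 match with 2 mismatches on the minus strand and an E-box that runs across the start site. The Trem2 window held an AP-1 match 9 bases before the start and, beyond it, a C/EBP match. No match lay in the windows at the starts of the Apoe and Soat1 genes. Of 32544 windows of the same length, 21.9% held a DR4 match, 3.87% a DR1 match, 1.24% the sterol element, 7.17% the E-box, 7.79% the AP-1 site, 3.11% the PU.1 site, 10.8% the C/EBP site and 13.6% TATAAA. A match describes letters in a window and not a bound site.

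The matrix held 40411 barcodes and 105560763 UMIs, with 9745192 to 24393841 UMIs and median UMIs per barcode of 1536 to 3503 per suffix. The limits of the study on genes and mitochondrial counts per barcode kept 38751 barcodes (95.9%). Gates on marker genes, none of them among the 9 genes, put 36909 passing barcodes (95.2%) in microglia, 201 in NK cells, 110 in granulocytes, 44 in dendritic cells, 250 in monocytes and 244 in choroid plexus epithelium. A further 896 entered no gate, 91 entered more than 1, and 6 met the gate for border macrophages and were not compared. Of 24 genes kept out of the gates as a check, 22 were highest among the gated groups in the group they mark. Fcrls, a microglial gene highest in the 6 border macrophage barcodes, was among the exceptions. No gate was made for macrophages of bone marrow origin, which the study found among these cells. It reported low levels of Selplg, P2ry12 and Tmem119, all genes of the microglial gate, in a cluster of them. Barcodes called microglia here can thus include such macrophages.

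Libraries were found to share barcode sequences, and this touches the results below. Of the 40411 barcodes, 14722 (36.4%) carried a sequence that was also present under at least 1 other suffix, 490 sequences were present under all 6, and each of the 15 pairs of suffixes shared 509 to 3428 sequences. Copies resembled each other in their Apoe share. Between the copies of a pair of suffixes the Apoe share of UMIs correlated at r = 0.923 to 0.982, and log10 of their UMIs at r = 0.216 to 0.914. Of 23347 pairs of passing copies, 92.6% lay in the same gated group. Microglia made up 95.2% of passing barcodes, so that most pairs would lie in the same group in any case. Shared sequences made up 37.1% of microglial barcodes, with a median of 939 UMIs against 3118 in the others. They made up 5.97% of NK cells, 12.7% of granulocytes, 6.82% of dendritic cells, 5.6% of monocytes, 23.4% of choroid plexus and 77.8% of ungated barcodes. Shared microglial barcodes held 36639 Apoe UMIs per 1000000 UMIs (CPM) against 9782 in those whose sequence was found under 1 suffix, 71.2 against 14.7 CPM of Lpl, and 2059 against 2090 CPM of Trem2. Why sequences are shared was not tested. Over all barcodes the suffixes are not independent of each other, so that a like value in several suffixes is no independent support. Each result is therefore given over all barcodes and then over the barcodes whose sequence occurs under 1 suffix only, called unshared below. This second reading was chosen after the data were seen. It covers 23227 microglial, 189 NK cell, 96 granulocyte, 41 dendritic cell, 236 monocyte, 187 choroid plexus and 199 ungated barcodes.

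**Figure D1:**
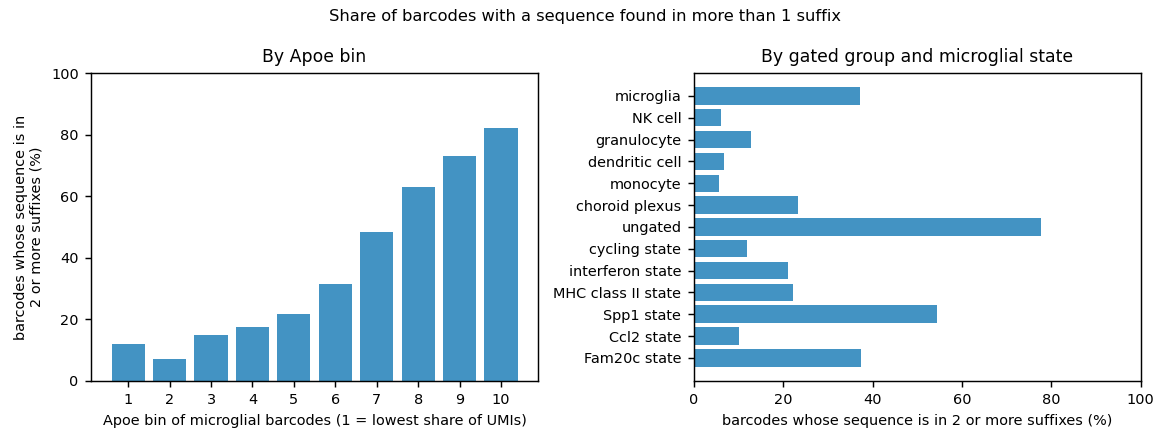
Percent of barcodes whose sequence is found under 2 or more suffixes, on the left in 10 bins of microglial barcodes ordered by the Apoe share of their UMIs, on the right by gated group and microglial state. The share was 11.8% in the lowest Apoe bin and 82.0% in the highest, and lay between 5.6% in monocytes and 77.8% in ungated barcodes.

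Apoe was the most abundant of the 9 transcripts in microglia. The method reads the 3′ end of each transcript, so values were not divided by gene length. Microglial barcodes held 14584 Apoe CPM (95% Poisson interval 14560 to 14609, counting error only), with 6707 in the lowest suffix, a median of 14309 and 22230 in the highest. The unshared microglial barcodes held 9782 CPM, from 4846 to 15945 with a median of 9956. The highest suffix thus lay 3.31 times above the lowest over all barcodes and 3.29 times in the unshared. Apoe was higher in ungated barcodes, at 59605 CPM (45404 to 75618.5 over 6 suffixes), and this range lay above that of microglia. Unshared ungated barcodes held 25915 CPM, from 16325 to 56443 over the 4 suffixes with at least 20 of them, above the microglial range there too. Granulocytes held 10002 CPM (4159, 9912 and 10692), NK cells 7876 (5910, 7556 and 16480), monocytes 7664 (6508, 8511 and 9288) and choroid plexus 7200 (4588 to 11778 over 5 suffixes). In the unshared, granulocytes (10147 CPM, 3628, 9921 and 11076) stood above microglia, followed by monocytes (7691), NK cells (7664) and choroid plexus (6738). Neighbors in these orders had overlapping ranges, apart from the ungated barcodes above and dendritic cells, whose range could not be given. Dendritic cells held the least, 747 CPM (676 unshared), with 284 in the 1 suffix that had at least 20 of them.

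Trem2, the receptor, varied little between suffixes and was highest in microglia. It stood at 2084 CPM in microglia (1957 in the lowest suffix, median 2076, highest 2203) and at 2090 CPM in unshared microglia (1905 to 2222). Granulocytes followed with 1528 CPM (1160, 1410 and 1706) and 1583 unshared, a range below that of microglia in both readings. Ungated barcodes held 1472 CPM (1248 to 2010) over all and 567 unshared (378 to 862), NK cells 891 (840, 896 and 1122) and choroid plexus 698 (232 to 1071). Monocytes held 315 CPM (298, 320 and 321) and 306 unshared, the lowest level apart from 78.2 CPM, from 18 UMIs, in dendritic cells.

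Tyrobp, the adaptor, was not highest in microglia. It reached 3639 CPM in monocytes (3459, 3679 and 3802), 3461 in granulocytes (3166, 3680 and 4082) and 2957 in dendritic cells. Microglia held 1964 CPM (1788, median 1959, highest 2087) and NK cells 1873 (1806, 1880 and 2031), and these ranges overlapped. The unshared values were 3682 CPM in monocytes, 3479 in granulocytes, 1871 in microglia and 1867 in NK cells. The ranges of monocytes and granulocytes lay above that of microglia in both readings. Choroid plexus, an epithelium, held 535 CPM (223 to 710), below all other groups.

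Lpl and Fabp5 were sparse outside the ungated barcodes. Lpl stood at 24.8 CPM in microglia (12.4, median 24.5, highest 33.9), at 14.7 in unshared microglia (7.03 to 21.9) and at 39.4 in monocytes (20.1, 32.9 and 38.7). NK cells held 2 UMIs, granulocytes 1, choroid plexus 1 and dendritic cells 0, which allows up to 13.03 CPM in dendritic cells. Ungated barcodes held 319 CPM of Lpl (256 to 423), a range above all others. In unshared ungated barcodes 40 UMIs gave 130 CPM, with 308 in suffix 2 and 21.2 to 42.7 in the other suffixes compared, a range that overlapped that of monocytes. Fabp5 stood at 6.77 CPM in microglia (3.36 to 8.42), at 25.7 in monocytes (11.1, 22.6 and 40.5, from 28 UMIs) and at 81.3 in ungated barcodes (19.0 to 139). Its unshared values were 5.57, 27.4 and 38.9 CPM, and in unshared ungated barcodes they ran from 0 to 92.3 over 4 suffixes. Each remaining gated group held at most 6 UMIs of Fabp5, and the barcodes of more than 1 gate held 26.

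The efflux transporters were at similar low levels in microglia and lower in monocytes. Abca1 stood at 55.4 CPM in microglia (49.3, median 55.6, highest 64.9) and 53.8 unshared, and at 11.9 CPM in monocytes (5.53, 7.52 and 17.7) and 8.80 unshared. Abcg1 stood at 69.1 CPM in microglia (63.5, median 67.6, highest 78.8) and 63.8 unshared, and at 30.3 CPM in monocytes (25.1, 27.6 and 30.3) and 27.4 unshared. For both genes the monocyte range lay wholly below the microglial range. Dendritic cells held 0 UMIs of Abca1 and 1 of Abcg1. NK cells (43.7 and 39.0 CPM) and granulocytes (54.3 and 39.8 CPM) held both transcripts, from 11 to 28 UMIs each, with ranges over suffixes that overlapped those of microglia. Among unshared barcodes the 2 NK cell suffixes lay below the microglial range for both genes (39.2 and 41.1 CPM of Abca1, 27.4 and 34.3 of Abcg1).

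Plin2 and Soat1, the genes of droplets and sterol esters, were higher in monocytes than in microglia in the pooled counts. Plin2 stood at 116 CPM in microglia (71.1, median 117, highest 143), 98.3 unshared, and at 199 CPM in monocytes (105, 196 and 243), 204 unshared, with overlapping ranges. Within suffix 5 Plin2 was lower in monocytes than in microglia (105 against 141 CPM, and 109 against 114 in the unshared). Within suffixes 4 and 6 it was higher in monocytes. Soat1 stood at 34.7 CPM in microglia (30.03, median 33.4, highest 41.1), 32.6 unshared, and at 93.6 CPM in monocytes (60.8, 87.8 and 124), 93.9 unshared. The lowest monocyte value of Soat1 thus lay above the highest microglial one. Choroid plexus held the least of both, 44.3 CPM of Plin2 and 13.1 of Soat1. There Ttr, a check gene of that group, alone took 276600 CPM, which lowers the CPM of all other genes.

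**Figure D2:**
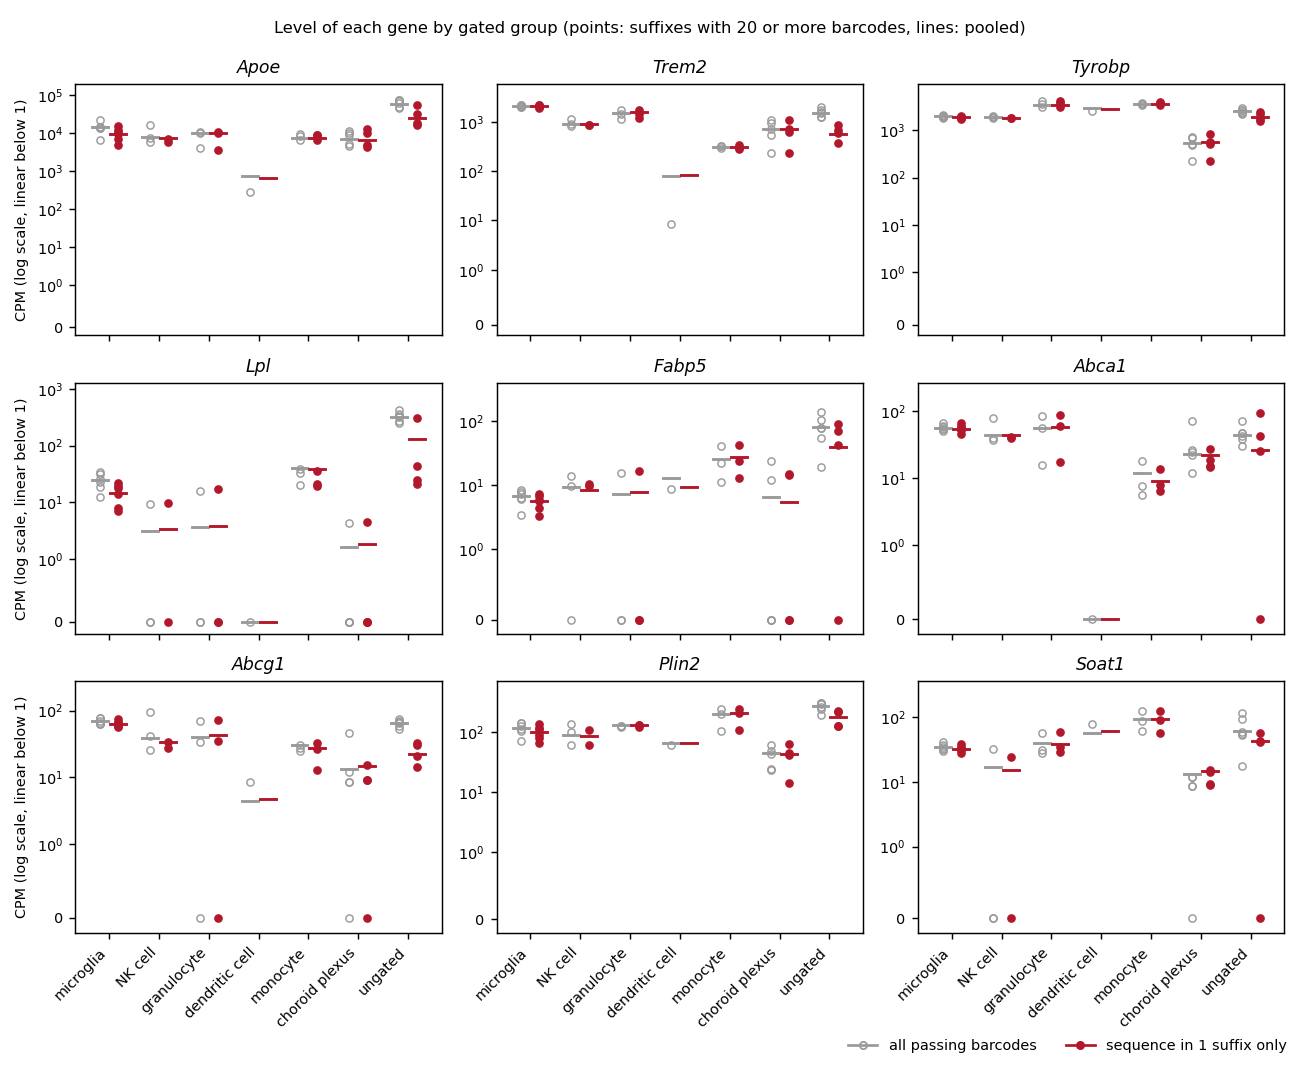
Level of each of the 9 genes in CPM (log scale, linear below 1) by gated group, as points for the suffixes with at least 20 barcodes and as lines for the pooled value, in grey over all passing barcodes and in red over unshared ones. Trem2 was highest in microglia, Tyrobp and Soat1 in monocytes, and Apoe in ungated barcodes, where the unshared level (25915 CPM) lay below the level over all (59605 CPM).

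Transcripts of Apoe and Trem2 were also counted in NK cells and granulocytes. A share of positive barcodes can hold background, from free RNA or from doublets (2 cells under 1 barcode), and these were not told apart. Each barcode was thinned to 500 UMIs for this comparison, and none was too shallow. An Apoe UMI was then present in 78.1% of microglia (exact 95% interval 77.7 to 78.5), 37.3% of NK cells (30.6 to 44.4) and 58.2% of granulocytes (48.4 to 67.5). The unthinned shares were 92.6%, 60.2% and 69.1%, at median depths of 2454, 2601 and 1829 UMIs, and the thinned shares of unshared barcodes 68.2%, 35.4% and 56.2%. For Trem2 the thinned shares were 62.9% of microglia, 26.9% of NK cells and 31.8% of granulocytes, and 63.6%, 25.4% and 32.3% in the unshared. Among the sparse genes, Abca1 was present in 2.83% of thinned microglia and in 0 of 201 NK cells (exact 95% upper limit 1.82%). The unthinned shares of 12.1% and 11.4% were nevertheless alike. The unshared shares of Abca1 were 2.63% and 0 of 189 NK cells (upper limit 1.93%). Abcg1 was present in 3.65% against 0.995%, and in the unshared in 3.17% against 1.06%, inside the interval of the NK cell share (0.128 to 3.77). Plin2 was present in 6.11% against 2.99%, also inside the NK cell interval (1.10 to 6.38), and in the unshared in 4.34% against 2.65%. Lpl was present in 1.27% of microglia, below the upper limit of 1.82% for 0 of 201 NK cells. Soat1 was present in 1.83% against 1.49% and Fabp5 in 0.282% against 1.49%. None of these 3 genes could thus be told from background at this depth. The same held for Plin2 in both readings and for Abcg1 in the unshared. Apoe UMIs were set against the UMIs of the 6 microglial gate genes as a measure of microglial RNA. Microglial barcodes were selected for UMIs of these genes, and ungated barcodes had too few of them to pass. The gate thus takes part in setting the ratios of these 2 groups, for Apoe and for Trem2, and their contrast is a description. There were 1.08 Apoe UMIs per gate UMI in microglia, 1.31 in NK cells, 1.41 in granulocytes and 1.63 in choroid plexus, but 4.31 in monocytes and 36.2 in ungated barcodes. The unshared values were 0.702, 1.28, 1.39, 1.43, 4.55 and 28.3. Trem2 UMIs per gate UMI stood at 0.155 in microglia, 0.148 in NK cells, 0.215 in granulocytes, 0.177 in monocytes and 0.158 in choroid plexus, but at 0.894 in ungated barcodes and 0.0793 in dendritic cells. In the unshared the ungated value was 0.621 and that of dendritic cells 0.0857. The gate genes made up 0.602% of pooled UMIs in NK cells, with a median of 0.221% per barcode. In granulocytes these shares were 0.711% and 0.413%. The part of microglial RNA, free or from doublets, in the levels of the other groups was not tested.

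Monocytes held more Soat1 and less Trem2, Abca1 and Abcg1 than microglia. A gene was called when its pooled CPM differed at least 2-fold and lay on the same side in every suffix with at least 20 barcodes of both groups, and genes under 20 CPM in both groups were not tested. A gene under 20 CPM in 1 of the groups thus passed only through the group where it was high and had to differ, so that its call is a description. Only suffixes 4, 5 and 6 held at least 20 monocytes, 98, 43 and 83 of the 250, while suffixes 1, 2 and 3 held 7407, 9812 and 2633 of the 36909 microglial barcodes. Fabp5 (3.80-fold) and Soat1 (2.70-fold) were called higher in monocytes, and Trem2 (0.151-fold), Abca1 (0.215-fold) and Abcg1 (0.438-fold) lower, where 34.2% of all tested genes were called in either direction. Unshared barcodes gave the same 5 calls, with 35.2% of tested genes called, at 4.92-fold for Fabp5, 2.88 for Soat1, 0.147 for Trem2, 0.164 for Abca1 and 0.429 for Abcg1. Fabp5 passed the minimum only through its level in monocytes and Abca1 only through that in microglia. The Fabp5 call rested on suffix 6, without which the ratio was 2.52 over all and 3.34 unshared and no longer called. Without suffix 6 Apoe was called lower over all barcodes (0.494-fold), and without suffix 4 Lpl higher (2.15-fold). In the unshared barcodes Tyrobp was called higher without suffix 4 (2.04-fold) and Plin2 without suffix 5 (2.31-fold). With no upper limit on genes per barcode, Abcg1 (0.557-fold) and Soat1 (2.42-fold) were not called.

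For groups and states the share of all genes set beside the members counts calls in either direction, not in 1 direction alone. In NK cells Trem2 (0.427-fold), Lpl (0.126-fold, from 2 UMIs) and Soat1 (0.494-fold) were called lower, 3 of 8 tested members beside 19.4% of all genes. Unshared barcodes gave Trem2 (0.424-fold) and Soat1 (0.461-fold), 2 of 7 beside 23.5%. The Soat1 call rested on suffixes with 0 UMIs and was lost under several alternatives, and the ratio was 0.550 without suffix 2 and 0.935 without suffix 6 over all barcodes, and 0.511 and 0.873 in the unshared. Without suffix 2 Apoe (0.476-fold) and Abcg1 (0.478-fold) were called lower over all barcodes. In the unshared Abcg1 was called lower without suffix 1 (0.477-fold) or suffix 2 (0.497-fold). Without an upper limit on genes the Trem2 ratio was 0.642 and not called, and among NK cells with under 0.5% of UMIs on microglial gate genes Abcg1 (0.412-fold) and Plin2 (0.398-fold) were called lower and the Trem2 ratio was 0.135. In this comparison Lpl and Soat1 passed the minimum only through microglia. In granulocytes only Lpl, with 1 UMI, was called lower (0.146-fold, 1 of 8 beside 18.2%), and none of 7 in the unshared, where 17.6% of genes were called. Their Abcg1 was called lower without suffix 6 (0.424-fold, and 0.498 in the unshared). Granulocytes held to the same limit of 0.5% had Trem2 (0.199-fold), Apoe (0.385-fold) and Abcg1 (0.182-fold) called lower and Tyrobp (2.64-fold) called higher. Under that limit the monocyte ratio of Trem2 was 0.0895 and the choroid plexus ratios of Trem2 and Tyrobp were 0.0713 and 0.0733, in place of 0.335 and 0.273 over all. Dendritic cells, with 1 suffix to compare, had 5 of 8 tested members called lower (Apoe, Trem2, Lpl, Abca1 and Abcg1), beside 46% of all genes, and were too few in the unshared for a call. Lpl, Abca1 and Abcg1 passed only through microglia there. Without suffix 5 their Apoe ratio was 0.0159 in place of 0.0512 and that of Trem2 0.00756 in place of 0.0375, and Soat1 was called higher (2.05-fold). With no upper limit on genes the ratios of Apoe and Trem2 were 0.281 and 0.145.

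Choroid plexus barcodes had 7 of 8 tested members called lower than microglia, all but Abca1, beside 40.7% of all genes called in either direction. In the unshared this was 6 of 7 beside 43.8%, with Abca1 (0.405-fold) among them and Apoe (0.689-fold) not. Ttr alone stood at 276600 CPM in choroid plexus (266061 unshared), which lowers the CPM of every other gene there. The median ratio of all tested genes was 0.674 (0.691 unshared). Ratios over UMIs without Ttr were not computed, so calls near 0.5 may depend on it. The Apoe call over all barcodes, at 0.494-fold, was lost without suffix 1 (0.573) or suffix 6 (0.538), Abca1 was called without suffix 4 (0.355), and in the unshared Soat1 was not called without suffix 1 (0.552). Abcg1 and Soat1, and over all barcodes Lpl, were under 20 CPM in choroid plexus and passed only through microglia. Ungated barcodes had Apoe (4.09-fold), Lpl (12.9-fold), Fabp5 (12.0-fold) and Plin2 (2.31-fold) called higher, 4 of 9 beside 9.66%. In the unshared Apoe (2.65-fold) and Lpl (8.85-fold) were called higher and Trem2 (0.272-fold) and Abcg1 (0.355-fold) lower, 4 of 9 beside 22.4%. There the Lpl ratio was 4.15 without suffix 1 and 14.1 without suffix 6, Fabp5 was called without suffix 6 (11.6-fold) and Abca1 without suffix 2 (0.331-fold). Fabp5, and in the unshared Lpl, were under 20 CPM in microglia and passed only through the ungated barcodes. Ungated barcodes were shallow, with a median of 741 UMIs, and held 0.165% of UMIs on microglial gate genes against 1.35% in microglia. This contrast follows in part from the gate itself.

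Among barcodes of the microglial gate, those with more Apoe carried more of the lipid handling transcripts and only slightly more Trem2. Microglial barcodes of each suffix were ordered by the Apoe share of their UMIs and cut into 10 bins of equal size, and the CPM of every other gene was taken over UMIs without Apoe. Apoe itself sets the bins and is no result. Apoe made up 0.0146% of UMIs in the lowest bin and 8.27% in the highest, and 0.00588% and 4.46% in the unshared. A gene was called at a ratio of the highest to the lowest bin of at least 1.5, or at most 0.667, with the same side in every suffix.

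Fabp5, which encodes a fatty acid carrier, had few UMIs in the lowest bin. It stood at 1.09 CPM in the lowest bin (10 UMIs, 0 to 2.44 over suffixes) and 33.4 in the highest (24.98, median 33.5, highest 38.6), 30.7-fold, and the ranges did not overlap. In the unshared it stood at 1.49 (9 UMIs) and 22.6 CPM (15.3 to 27.9), 15.1-fold and called. Suffix 5 held 0 UMIs of Fabp5 in the lowest bin in both readings, so no ratio is given for it, and the gene passed the minimum of 20 CPM only through the highest bin, where it had to differ. Plin2 rose from 68.5 CPM (54.2 to 90.9) to 286 (263, median 283, highest 305), 4.18-fold, and in the unshared from 67.1 (50.8 to 91.2) to 219 (140 to 299), 3.27-fold. The 2 ranges were apart in both readings, and the unshared suffix ratios ran from 1.79 to 4.21.

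Abca1 rose from 36.2 CPM (30.5 to 45.8) to 94.1 (74.2, median 98.1, highest 106), 2.60-fold, and in the unshared from 37.5 to 92.8 (77.1 to 113), 2.47-fold, with ranges apart in both. Abcg1 rose from 45.1 to 110 CPM, 2.43-fold, and in the unshared from 43.8 (38.9 to 57.1) to 79.9 (54.7 to 95.7), 1.82-fold, where the ranges overlapped and the ratio was 1.06 in suffix 3 and 1.20 in suffix 5. Soat1 rose from 28.2 to 60.4 CPM, 2.14-fold, and in the unshared from 27.7 (21.7 to 31.5) to 51.4 (45.05 to 60.3), 1.85-fold. The genes of sterol export and of sterol storage were thus called together in both readings.

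Lpl and Tyrobp were called over all barcodes and not in the unshared. Lpl, under 20 CPM in the lowest bin in both readings, passed the minimum only through the highest. It went from 9.68 CPM (5.09 to 17.0) to 106 (79.0, median 107, highest 163) over all, 10.9-fold and called. In the unshared it went from 11.1 (2.76 to 21.0) to 33.0 CPM (12.96 to 50.7), 2.97-fold and not called, because in suffix 1 the ratio was 0.983. Without suffix 1 the unshared Lpl ratio was 3.57 and called. Tyrobp went from 1600 to 2719 CPM, 1.70-fold and called, and in the unshared from 1567 (1436 to 1691) to 2280 (2001 to 2531), 1.46-fold, under the threshold although the ranges were apart. Without suffix 1 the unshared ratio was 1.503 and called.

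Trem2 was nearly level across the bins. It stood at 1971 CPM in the lowest bin (1852 to 2112) and 2298 in the highest (2157 to 2483), 1.17-fold with ranges just apart, and in the unshared at 1967 (1856 to 2095) and 2270 (1897 to 2453), 1.15-fold with overlapping ranges. It was not called in either reading. Over all barcodes 7 of 8 tested members were called higher and 0 lower, where 10.1% of 5917 tested genes were called higher and 8.06% lower. Lpl and Fabp5 count among these 7 although they passed the minimum only through the highest bin. In the unshared 5 of 8 were called higher (Fabp5, Abca1, Abcg1, Plin2 and Soat1) and 0 lower, beside 6.22% and 5.2% of 5754 genes. By ratio the unshared members ranked from 16 (Fabp5) through 76 (Plin2), 84 (Lpl), 110 (Abca1), 195 (Soat1), 209 (Abcg1) and 449 (Tyrobp) to 1046 (Trem2). The median ratio of all tested genes was 0.993 over all barcodes and 0.922 in the unshared.

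Depth and the microglial gate genes moved with the Apoe share. The median of UMIs per barcode went from 2611.5 in the lowest bin to 1240.5 in the highest over all barcodes, and from 2625.5 to 3714 in the unshared. The gate genes went from 1.58% to 0.734% of UMIs, and from 1.59% to 0.845% in the unshared. Among them P2ry12 went from 4495 to 1444 CPM and Gpr34 from 1925 to 632, while Olfml3 stood at 1203 and 1184. Ms4a7 rose from 0.109 to 17.1 CPM (0.166 to 18.8 in the unshared). Itga4 went from 1.30 to 9.38 CPM, Tgfbi from 21.7 to 41.6 and Mrc1 from 1.85 to 15.3, and these rose in the unshared too. Ccr2 stood at 6.20 and 5.46, and at 6.64 and 10.6 in the unshared. Ccr2 and Mrc1 are genes of the monocyte and border macrophage gates, whose barcodes were taken out of microglia. The study named macrophages of bone marrow origin among these cells, including a cluster high in Spp1 and Apoe, for which no gate was made here. Whether the bins differ in cell type was not tested. Shared sequences were 11.8% of the lowest bin and 82.0% of the highest. Their part in the ratios was not tested, apart from the unshared values and from barcodes of 2000 to 4000 UMIs, where each of the 8 members kept its call, or its lack of one, over all barcodes. Restricted to barcodes with at least 1% of UMIs on gate genes, or without the states marked by Spp1 and Fam20c, the Fabp5 ratio fell from 30.7 to 8.06 and 13.6. The level of Fabp5 was then under the 20 CPM minimum, and its call was lost. The Lpl ratio fell from 10.9 to 6.79 and 4.46. Per barcode the rank correlation with the Apoe share was weak and is given as a description over barcodes of 1 library, which share its depth. The median Spearman rho over suffixes was 0.225 for Tyrobp (0.199 unshared), 0.129 for Plin2 (0.163), 0.122 for Lpl (0.0843), 0.0948 for Fabp5 (0.112), 0.0494 for Trem2 (0.0921), 0.0406 for Abca1 (0.136), 0.0282 for Abcg1 (0.0948) and 0.0175 for Soat1 (0.0776). Over all barcodes the lowest suffix lay below 0 for Abcg1 (-0.0276), Soat1 (-0.00708) and Trem2 (-0.00209). For UMIs per barcode it was -0.208 over all and 0.311 in the unshared.

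**Figure D3:**
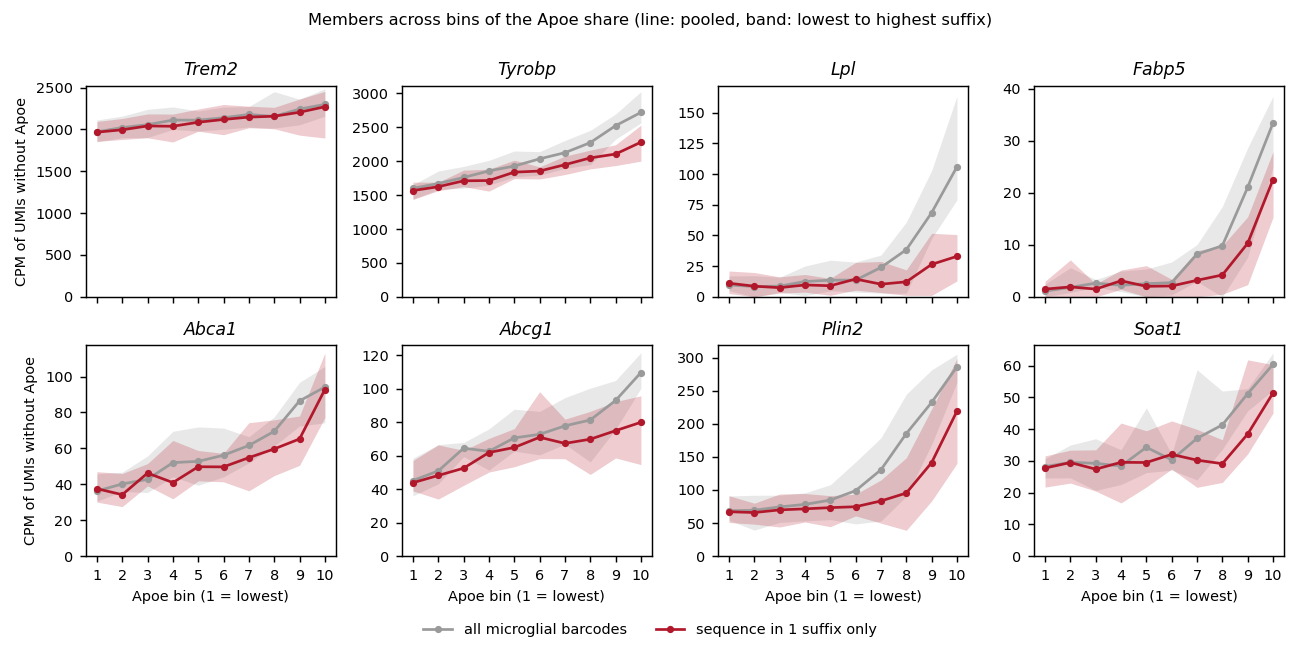
CPM of the 8 other genes, taken over UMIs without Apoe, across 10 bins of microglial barcodes ordered by the Apoe share, with lines for the pooled value and bands from the lowest to the highest suffix, grey for all microglial barcodes and red for unshared ones. Plin2 ended at 286 CPM over all and 219 in the unshared, Lpl at 106 and 33.0, and Trem2 stayed between 1967 and 2298 CPM at the ends.

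Microglial states were marked by genes that are no members. They were cycling (594 barcodes), interferon response (582), MHC class II (566), Spp1 (2270), Ccl2 (5746) and Fam20c (1598), and states may overlap. Calls were made as for the bins, against the other microglial barcodes. The shares of all genes given for states count calls in either direction. State gates asked for UMIs of marker genes, so that deeper barcodes could enter them more readily. Median UMIs inside and outside were 3898 and 2430 for cycling, 3716.5 and 2435 for interferon and 3639.5 and 2434 for MHC class II. They were 2429 and 2456 for Spp1 (4202.5 and 3086 in the unshared), 3615 and 2150 for Ccl2 and 2919 and 2431 for Fam20c. Spp1, which encodes the secreted protein osteopontin, marked barcodes with 4.16-fold more Apoe (49390 against 11886 CPM, 3.22 to 10.1 over suffixes), and 4.54-fold in the unshared (36688 against 8086 CPM). Lpl was 11.6-fold higher (4.66 to 35.5), Fabp5 7.03-fold and Plin2 2.44-fold, so that 4 of 9 members were called higher beside 9.14% of all genes. In the unshared 5 of 9 were called, with 10.6% of genes, namely Apoe, Lpl (5.04-fold, 2.14 to 10.7), Fabp5 (5.39), Plin2 (2.78) and Abca1 (1.72). Over all barcodes Abca1 stood at 1.56-fold and was called only without suffix 3 (1.58-fold) or under some barcode limits (no upper limit on genes, 2000 to 4000 UMIs), and in the unshared Soat1 was called without suffix 3 (1.51-fold), 4 (1.64-fold) or 6 (1.52-fold). Shared sequences made up 54.4% of this state.

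Fam20c, a secretory pathway kinase gene, marked a state with more Apoe, Plin2, Soat1 and Abca1. Apoe was 2.02-fold higher (27972 against 13833 CPM), Lpl 10.2-fold (170 against 16.6 CPM), Fabp5 8.28-fold, Plin2 1.80-fold, Soat1 1.76-fold and Abca1 1.53-fold, 6 of 9 beside 4.51% of all genes called in either direction. The same 6 were called in the unshared, beside 4.24%, at 2.12, 14.1, 9.34, 1.83, 1.75 and 1.55-fold. The Lpl ratio lay between 9.10 and 24.7 over the 6 unshared suffixes, above 1 in each. Without suffix 2 the Abca1 ratio over all barcodes was 1.497, just under the threshold, and with no upper limit on genes 1.47, and without suffix 1 Abcg1 was called in the unshared (1.53-fold). Lpl and Fabp5 were under 20 CPM outside the Spp1 and Fam20c states (Lpl at 14.1 and 16.6 CPM, and 11.8 and 8.82 in the unshared) and passed the minimum only through their level inside them. The Spp1 and Fam20c states shared 347 barcodes, 15.3% of the first and 21.7% of the second, and shared sequences made up 37.3% of the Fam20c state.

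In the other states fewer members were called. Shares of all genes again count calls in either direction. Shared sequences made up 10.1% of the Ccl2 state, 11.8% of cycling, 21.0% of interferon and 22.1% of MHC class II barcodes, against 37.1% of all microglial barcodes. The part of depth and of shared sequences in the calls, or in their absence, was not tested beyond the alternatives given. In the interferon state Apoe (1.67-fold) and Plin2 (1.72-fold) were called higher, 2 of 8 beside 10.2%, and in the unshared Apoe (2.42), Plin2 (2.08) and Soat1 (1.53), 3 of 7 beside 10.3%. Without suffix 5 Abcg1 (1.504-fold) and Soat1 (1.56-fold) were also called over all barcodes, without suffix 2 Lpl was called lower (0.664-fold), and the unshared Soat1 call was lost without suffix 1 (1.43) or 6 (1.49). At 2000 to 4000 UMIs Plin2 (2.47-fold) was not called. In the MHC class II state Apoe (2.31-fold) and Plin2 (1.599-fold) were called higher, 2 of 8 beside 3.68%, and in the unshared at 2.64 and 1.84-fold, 2 of 7 beside 4.27%. Suffix 1 gave 332 of the 566 barcodes of this state (296 of 441 in the unshared), and without it Lpl (3.06-fold) and Soat1 (1.65-fold, 1.56 in the unshared) were called too. In the Ccl2 state 0 of 8 members were called over all barcodes beside 3.08%, with Apoe at 1.36-fold and Plin2 at 1.45-fold, while in the unshared Apoe (2.54-fold) and Plin2 (1.91-fold) were called, 2 of 7 beside 3.14%. Without suffix 2 Plin2 was called over all barcodes (1.52-fold) and Lpl was called lower (0.661-fold), and with at least 1000 UMIs Apoe (1.53-fold) and Plin2 (1.58-fold) were called higher. In cycling barcodes Abcg1 was called lower (0.646-fold), 1 of 8 beside 16.7%. In the unshared Abcg1 (0.663-fold) was called lower and Lpl (2.16-fold) higher, 2 of 8 beside 16%, Lpl having passed only through the cycling barcodes. The Abcg1 call was lost without suffix 2 (0.669, unshared 0.691) or 5 (0.683, unshared 0.702), with no upper limit on genes (0.719) and at 2000 to 4000 UMIs (0.780). Trem2 was called in none of the 6 states in either reading, with pooled ratios from 0.803 in unshared cycling barcodes to 1.11 in the Fam20c state.

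**Figure D4:**
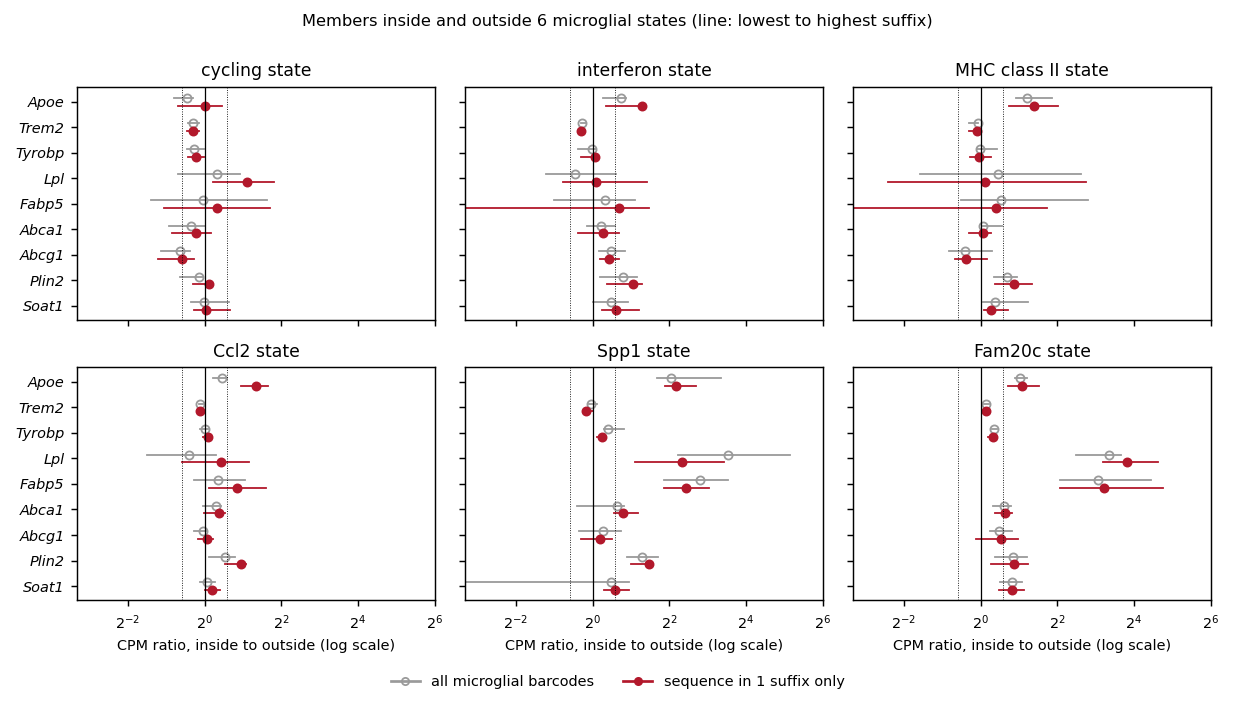
Ratio of CPM inside to outside each of 6 microglial states (log scale) for the 9 genes, as points for the pooled ratio and lines from the lowest to the highest suffix, drawn no lower than 0.1, in grey over all microglial barcodes and in red over unshared ones, with dotted lines at the thresholds of 1.5 and 0.667. Apoe, Lpl, Fabp5 and Plin2 lay to the right in the Spp1 and Fam20c states, and Trem2 stayed near 1 in each state.

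Genes of related functions were taken from 6 lists of 106 genes, of which 105 were in the matrix, and Clec7a was not used here. All lists were written with earlier results of these data known. The activation list was made of genes often seen with Apoe and Trem2, so that its counts are a description and no support. Across the Apoe bins the list of microglial activation genes had 17 of 18 tested genes called higher over all barcodes, beside 10.1% of all genes, and 12 of 17 in the unshared, beside 6.22%. Of these, 6 over all barcodes (Spp1, Cst7, Lilrb4a, Itgax, Csf1 and Lgals3) and 4 in the unshared (Spp1, Cst7, Csf1 and Itgax) were under 20 CPM in the lowest bin and passed the minimum only through the highest, so that no median is given. These include Spp1 (231-fold, 107 in the unshared), the cystatin gene Cst7 (98.6 and 28.1), the receptor tyrosine kinase gene Axl (10.9 and 7.94) and the tetraspanin gene Cd63 (7.16 and 5.94). Of genes of liver X receptors and sterol efflux 3 of 10 were called higher over all barcodes, and 1 of 9 higher and 1 lower in the unshared, where 5.2% of all genes were called lower. Apoc1, the apolipoprotein gene beside Apoe, was 225-fold higher (143 in the unshared) from 1.41 and 1.33 CPM in the lowest bin, and Abca9, an ABC transporter gene, was called lower in the unshared (0.662-fold). Of sterol synthesis and uptake genes only Scarb1, a lipoprotein receptor gene, was called (1.88-fold, 1.62 in the unshared), 1 of 6 and 1 of 7. Of endolysosomal lipid genes 3 of 12 were called higher, and 2 of 12 in the unshared, where Npc2, which carries cholesterol out of lysosomes, stood at 2.36 and 1.72-fold.

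Droplet and fatty acid genes were called in both directions, with 5 of 12 higher and 2 lower over all barcodes, and 1 of 9 higher and 2 lower in the unshared. Of all tested genes 10.1% were called higher and 8.06% lower over all barcodes, and 6.22% and 5.2% in the unshared. Nceh1, a cholesteryl ester hydrolase gene, was called higher (4.10-fold, 2.40 in the unshared), and Mgll, the monoacylglycerol lipase gene (0.566 and 0.559), and Acsl4, an acyl-CoA synthetase gene (0.580 and 0.641), were called lower. The scavenger receptor gene Msr1 had the largest ratio of this list over all barcodes, 79.6-fold from 4 UMIs in the lowest bin, and was below the minimum in the unshared. Of genes of the TREM2 receptor family and its signaling, 3 of 11 were called higher and 1 lower over all barcodes, and 2 of 10 higher in the unshared. Ms4a6d stood at 4.56 and 1.59-fold and Treml2, a receptor gene of the TREM cluster, at 2.53 and 2.92-fold, while Cd33, an inhibitory receptor gene, was called lower over all barcodes only (0.636-fold). Treml2, Nceh1, Msr1, Dgat2, Hilpda, Hcst, Ch25h and Apoc1 were under 20 CPM in the lowest bin where they were called. They passed the minimum only through the highest bin, so that their calls are a description. The counts of their lists include them. In monocytes against microglia the sterol synthesis and uptake list had 12 of 14 tested genes called higher over all barcodes, beside 34.2% of all genes called in either direction, and most of these 14 were under 20 CPM in microglia and passed only through monocytes.

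**Figure D5:**
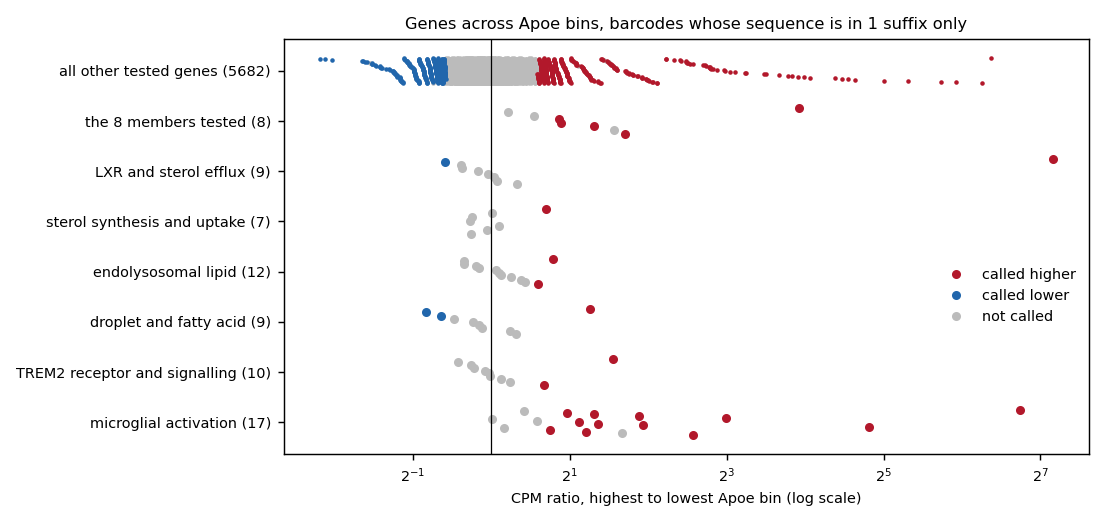
Ratio of CPM in the highest to the lowest Apoe bin (log scale) for each tested gene in unshared microglial barcodes, with the 8 tested members and the genes of each list in rows of their own, red for genes called higher, blue for lower and grey for those not called. In the activation list, written with earlier results of these data known, 12 of 17 genes were called higher, beside 6.22% of all tested genes. In the list of liver X receptors and sterol efflux Apoc1 stood at 143-fold while 1 gene was called lower.

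Of all called genes with at least 50 CPM, those with the highest ratios across the bins over all barcodes were Spp1, Apoc1, Cst7, Fn1 (fibronectin, 86.6-fold), Saa3 (a serum amyloid gene, 52.1), C4b (complement, 42.2), Plet1 (30.5) and the chemokine gene Cxcl2 (25.9). In the unshared Cxcl13 (24.8-fold) took the place of Plet1, and C4b stood at 82.8-fold. Apoc1, Fn1 and C4b had under 2 CPM in the lowest bin in both readings, and Cst7 2.17 and 2.16, so that these ratios rest on few UMIs. All of these top genes were under 20 CPM in the lowest bin, where Spp1 stood highest (13.2 CPM, 12.4 unshared). Each thus passed the minimum only through the highest bin, where it had to differ, and its call is a description. The lowest ratios over all barcodes were those of Kcnk12 (0.151), Dnajb1 (0.251), Csmd3 (0.271), Prkca (0.277) and Ecscr (0.280). In the unshared they were those of Sox4 (0.328), Il7r (0.332), Txnip (0.361), Kcnk12 (0.372) and Csmd3 (0.374). Kcnk12 (8.02 CPM) and Prkca (14.2 CPM) over all barcodes, and Il7r (18.2 CPM) in the unshared, were under 20 CPM in the highest bin. They passed only through the lowest bin.

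Likeness to Apoe was measured as Pearson r of log2(CPM + 10) over 27 values, each 1 gated group in 1 suffix, among 4729 genes. The points share libraries and, over all barcodes, cells, so that r is a description. The most like were Lgals3bp (0.930), the complement receptor gene C3ar1 (0.921), Axl (0.884), Cd63 (0.876) and Tmem37 (0.862). Of the members Lpl reached 0.773, Trem2 0.733 and Tyrobp 0.180. Most like Lpl were Plet1 (0.910), the elastase gene Mmp12 (0.901) and Ctsb (cathepsin B, 0.892). Over 22 unshared values the most like Apoe were Creb5 (0.805), Hsd17b12 (0.772), Axl (0.768), Cep57 (0.729) and Cuedc2 (0.717), Trem2 stood at -0.00957 and Lpl at 0.513, and the most like Lpl were Wapl (0.898), Cd79b (0.877) and Krcc1 (0.828). Axl alone was named for Apoe in both readings, and no gene for Lpl.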

How the data were processed

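CD45+ cells were sorted after exclusion of doublets, and 10x Chromium 3′ libraries were sequenced by the authors in batches that no label assigns. The authors aligned reads to mouse build mm10 alone with Cell Ranger 3.1 and joined 6 libraries without batch correction. The deposited matrix holds the count of UMIs per gene and barcode, unnormalized. The study used Seurat 3.1.5, not used here. Its limits were kept (more than 200 genes, no more than 2500, mitochondrial share below 5%). Barcodes above the upper limit were doublets to the study, no doublet caller was run, and barcodes of more than 1 gate were set aside. The microglial gate asked for at least 3 UMIs from at least 2 of 6 genes. Python 3.11.15, numpy 2.4.6, scipy 1.17.1 and pandas 2.3.3 were used. Named genes were the 9 members, the 5 genes most like Apoe and 3 most like Lpl, the 8 highest and 5 lowest called ratios across Apoe bins at 50 CPM or more, and up to 4 called genes per list. Some genes of the gates, the list gene Ms4a7, Itga4 and Tgfbi were named besides. Members and lists were chosen with earlier results of these data known. A split of microglia by gate gene share, though planned, was not made. Alternatives changed limits, gates, bins, depth and minimum, left out suffixes or removed shared sequences. In simulated counts for the highest and lowest Apoe bin, all 200 genes changed 3-fold were recovered among 5565 tested. These genes had at least 50 CPM and the counts held counting error alone. The simulation thus says nothing on sparser genes, smaller changes, spread between suffixes or shared sequences. Intervals cover counting error only. Results of some genes are not reported here.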

Additional observations from a re-analysis of the deposited data

How the results depend on the processing

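Across Apoe bins, 6 alternatives touched a call or a count. With 1 barcode kept per sequence the Tyrobp ratio was 1.48 and the Lpl ratio 4.71, neither called, and with barcodes under 1 suffix only they were 1.46 and 2.97. The Fabp5 ratio was 13.6 without the Spp1 and Fam20c states and 8.06 with at least 1% of UMIs on microglial gate genes. In both settings the level of Fabp5 was under the expression minimum, and its call was lost. Genes called higher numbered 600 over all barcodes, 323 at 2000 to 4000 UMIs, 358 under 1 suffix only and 394 with 1 barcode per sequence. Genes called lower numbered 477, 223, 299 and 310, and 748 with a minimum of 5 CPM. No ratio called over all barcodes with the main settings changed direction under any alternative run. Leaving out each suffix kept the call, or the lack of one, of each of the 8 members across the bins over all barcodes. Then 607 to 628 genes were called higher and 487 to 530 lower. The ratios were 1.15 to 1.17 for Trem2, 1.67 to 1.72 for Tyrobp, 9.61 to 11.5 for Lpl and 26.1 to 38.1 for Fabp5. They were 2.49 to 2.72 for Abca1, 2.29 to 2.59 for Abcg1, 3.95 to 4.44 for Plin2 and 2.10 to 2.23 for Soat1. Apoe in microglia lay between 13332 and 15405 CPM. Copies of a shared sequence remain under other suffixes when 1 is left out, so that these values are no independent support. In the unshared, Lpl and Tyrobp came to be called across the bins without suffix 1. Dendritic cells under 1 suffix only were too few for a call. The cause of these shifts was not tested. No paired analysis was possible because the suffixes carry no replicate number of the labels and no test was made. Sparse genes are limited by depth, since Lpl had a UMI in 3.37% and Fabp5 in 1.32% of microglial barcodes.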
